A study of Mus musculus with 12 samples.

Results

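The genes of oxidative phosphorylation were compared across mouse embryonic stem (ES) cells that lack TET1 and differ in TET2. The nuclear members were every gene of the table whose symbol begins with Nduf, Uqcr, Cox4 to Cox8 or Atp5, together with Sdha, Sdhb, Sdhc and Sdhd, which gave 94 genes. The other 13 members were the protein-coding genes of mitochondrial DNA, so that 107 of the 35976 genes in the table were followed. Of these, 88 nuclear genes and all 13 mitochondrial genes passed the filter on low counts that left 16014 genes for testing. The 6 nuclear members that did not pass were Cox6a2, Cox7b2, Cox8b, Cox8c and the pseudogenes Atp5c1-ps and Uqcrh-ps1.

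Oxidative phosphorylation passes electrons from NADH and succinate along complexes I to IV of the inner mitochondrial membrane to oxygen, and complex V uses the proton gradient that builds up to make ATP. All complexes but complex II are built from nuclear and mitochondrial gene products, so that a cell draws on both genomes for them. Each nuclear member was put to a complex by the start of its symbol alone. Complex I thus counts Ndufa4, Ndufa4l2 and the Ndufaf assembly factors. Complex V counts Atp5s and Atp5sl, which RefSeq names Dmac2l and Dmac2. ES cells in culture rely on glycolysis and respiration together. TET1 and TET2 are dioxygenases that oxidise 5-methylcytosine in DNA and use 2-oxoglutarate, an intermediate of mitochondrial metabolism, as a co-substrate.

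The cells were of the V6.5 line, grown on gelatin in serum medium with LIF, the GSK3 inhibitor CHIR99021 and the MEK inhibitor PD0325901, with no further treatment. Total RNA was sequenced in paired ends from 4 groups of 3 libraries, lettered A, B and C. The N1300T groups, numbered 49 and 81, carried the TET2 substitution N1300T on a Tet1 knockout background. In the group called DKO, numbered 41, both Tet1 and Tet2 were knocked out, and the Tet1KO group was the Tet1 knockout alone. All 4 groups therefore shared the loss of Tet1, and no group with intact Tet1 was compared. What the numbers 41, 49 and 81 stand for was not given in the sources used here, and nothing in the labels said that libraries of a group came from separate cultures. The p-values accordingly measured only the spread between these libraries, which may be technical. DKO and Tet1KO cells each came as a single group. Their genotype and any other difference between the groups therefore cannot be told apart.

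The libraries held between 31515011 counts (N1300T 49 C) and 57054862 counts (DKO A), and values are given as CPM, counts scaled to a common library size with TMM factors. Tet2 averaged 135.2 and 141.7 CPM in N1300T 49 and 81, 94.5 CPM in DKO and 160.4 CPM in Tet1KO cells. It was lower in DKO than in Tet1KO cells by 0.76 on the log2 scale (log2 fold change -0.76, SE 0.0856, adjusted p = 1.43e-05, edgeR). Tet1 RNA was counted in every group, at 164.9, 158.1, 174 and 152.7 CPM in N1300T 49, N1300T 81, DKO and Tet1KO cells, so that the count over the whole gene does not check its deletion. All 12 pluripotency markers examined passed the filter, with summed levels of 8228 to 8604 CPM in N1300T 49, 8036 to 8583 CPM in N1300T 81, 7503 to 8038 CPM in DKO and 8173 to 8314 CPM in Tet1KO libraries. The DKO libraries thus lay below the Tet1KO libraries in these markers. Of 12 feeder fibroblast markers 8 passed. All 12 together had summed levels of 1717 to 2514 CPM, 2022 to 2778 CPM, 2049 to 2181 CPM and 1742 to 2514 CPM in N1300T 49, N1300T 81, DKO and Tet1KO libraries. Dcn was at 0 in N1300T 49, and Postn, Lum and Dcn were at 0 in N1300T 81. The 10 primitive endoderm markers summed to between 103.6 and 131.4 CPM in every library.

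The sequences of 4 nuclear members are shown first. These are 4 of the 5 genes that passed the test in both comparisons with DKO cells (described below). The sequences were searched for motifs of known activators of respiratory genes, and binding was not measured. Each is RefSeq's promoter window on GRCm38.p6, from 250 bases before to 50 bases after a start that RefSeq gives for the gene, read 5′ to 3′ on the gene's strand. Capitals mark matches, on either strand, to the NRF1 core GCGCATGC, the ETS motif CCGGAAG of GABPA, the YY1 motif AAGATGGC or the SP1 motif GGGCGG. Ndufa6 (minus strand) holds the NRF1 core and SP1, Ndufv3 (plus strand) holds SP1 at 2 places, Atp5j (minus strand) holds YY1 and ETS, and Atp5j2 (minus strand) holds YY1. For Atp5j the table has 2 windows: the one shown lies inside the gene's full span, at a start downstream of its first, and was chosen for its matches, while the upstream one holds SP1 at 2 places.
Ndufa6, chr15:82354242-82354541: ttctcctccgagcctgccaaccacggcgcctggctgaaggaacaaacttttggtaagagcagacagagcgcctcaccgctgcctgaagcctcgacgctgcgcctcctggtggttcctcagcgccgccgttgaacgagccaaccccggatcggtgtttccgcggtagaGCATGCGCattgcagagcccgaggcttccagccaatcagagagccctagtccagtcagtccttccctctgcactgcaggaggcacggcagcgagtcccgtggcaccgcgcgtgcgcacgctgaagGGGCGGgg
Ndufv3, chr17:31519865-31520164: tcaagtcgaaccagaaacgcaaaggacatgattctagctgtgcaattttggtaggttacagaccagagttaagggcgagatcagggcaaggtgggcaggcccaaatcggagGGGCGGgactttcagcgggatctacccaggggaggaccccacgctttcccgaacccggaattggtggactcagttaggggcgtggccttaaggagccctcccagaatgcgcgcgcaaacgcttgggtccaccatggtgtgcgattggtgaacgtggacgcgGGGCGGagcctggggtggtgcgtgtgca
Atp5j, chr16:84834927-84835226: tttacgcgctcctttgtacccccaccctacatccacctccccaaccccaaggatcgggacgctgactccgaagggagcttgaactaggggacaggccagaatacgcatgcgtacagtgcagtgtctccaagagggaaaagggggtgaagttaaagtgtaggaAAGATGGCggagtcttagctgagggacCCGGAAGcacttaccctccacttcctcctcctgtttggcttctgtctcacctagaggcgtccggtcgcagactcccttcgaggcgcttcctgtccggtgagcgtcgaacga
Atp5j2, chr5:145191492-145191791: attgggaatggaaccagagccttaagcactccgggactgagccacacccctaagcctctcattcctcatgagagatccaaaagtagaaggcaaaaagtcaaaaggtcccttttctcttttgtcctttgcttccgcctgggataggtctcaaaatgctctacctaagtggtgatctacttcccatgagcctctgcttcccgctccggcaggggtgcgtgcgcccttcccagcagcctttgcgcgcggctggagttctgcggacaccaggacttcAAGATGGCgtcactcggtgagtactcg

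A promoter window was found for 73 nuclear members. The NRF1 core was present for 12 of them (16.4%), against 3% of all 27025 genes with a window. The ETS motif was present for 17 members (23.3%), against 9.9% of all genes, and the YY1 motif for 9 members (12.3%), against 3.2%. The SP1 motif was present for 32 members (43.8%), against 38.2% of all genes. These shares describe letters in the windows and not binding, and a window without a match says only that those letters are not in it. The RNA of the factors themselves did not pass the test between DKO and Tet1KO cells: the log2 fold change was -0.06 for Nrf1 (adjusted p = 0.501), -0.08 for Gabpa (adjusted p = 0.524) and 0.10 for Yy1 (adjusted p = 0.365).

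Summed over the tested nuclear members, oxidative phosphorylation RNA was lowest in the DKO cells. The nuclear genes summed to 14738, 13856 and 13936 CPM in N1300T 49, and to 12747, 14059 and 13630 CPM in N1300T 81. They summed to 12429, 12956 and 11628 CPM in DKO libraries, against 13775, 13463 and 13874 CPM in Tet1KO libraries. All DKO libraries lay below all Tet1KO libraries, while N1300T 81 A lay within the range of the DKO libraries. The group means were 14177 ± 488 CPM in N1300T 49, 13479 ± 669 CPM in N1300T 81, 12338 ± 669 CPM in DKO and 13704 ± 215 CPM in Tet1KO cells (SD, n = 3 each). The 13 mitochondrial genes summed to 26877, 19753 and 17363 CPM in N1300T 49, and to 22083, 18696 and 18992 CPM in N1300T 81. They summed to 21238, 20003 and 24047 CPM in DKO libraries, against 26518, 21996 and 20941 CPM in Tet1KO libraries. In the mitochondrial genes the 4 groups overlapped, and N1300T 49 A and Tet1KO A were the highest libraries. Mitochondrial genes took 1.74% to 2.64% of a library's counts, and the nuclear members 1.19% to 1.45%. In these bulk samples, fewer cells of a type and less RNA per cell cannot be told apart.

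DKO cells, in which Tet2 was knocked out as well, were set against Tet1KO cells, and here nuclear members of every complex were lower. Of the 88 nuclear members, 16 fell and 0 rose at an adjusted p under 0.05 (edgeR's quasi-likelihood test, Benjamini-Hochberg over all 16014 genes). That was 18.2% of the members, beside 7.12% of all tested genes called lower and 7.86% called higher (15% in either direction). The log2 fold change was below 0 for 85 of 88 members, with a median of -0.17, against a median of -0.01 over all tested genes. At an unadjusted p under 0.05, 46 members were lower and 2 higher, beside 14.6% of all genes in each direction. For 44 members all DKO libraries lay below all Tet1KO libraries, and for 2 all lay above, beside 17.7% of all genes each way. With a trend with transcript length removed from each library the count was 10 and the median -0.09. The count also rested on single libraries: it was 0 without DKO C, 3 without DKO A, 4 without Tet1KO A and 25 without N1300T 49 A. In the last of these fits 2575 of all genes were called in either direction, against 2399 with all libraries. The median stayed negative in each of these fits, at between -0.23 without DKO B and -0.12 without DKO C.

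Complex I oxidises NADH, and 7 of its 45 tested members fell in DKO cells (15.6%, beside 7.12% of all tested genes called lower). Ndufa9, an accessory subunit at the junction of the 2 arms of the complex, was at 94.4, 104 and 92.3 CPM in DKO libraries, against 120, 110 and 121 CPM in Tet1KO libraries. Its log2 fold change was -0.27 (SE 0.0654, adjusted p = 0.00974), and the groups did not overlap. Ndufv2, an iron-sulphur core subunit of the NADH-oxidising module, was at 100, 94.8 and 102 CPM in DKO libraries, against 125, 110 and 116 CPM in Tet1KO libraries (log2 fold change -0.24, SE 0.069, adjusted p = 0.0247). Ndufa5, an accessory subunit of the peripheral arm, was at 21.7, 23.5 and 19.4 CPM in DKO libraries, against 25.3, 25.8 and 33.2 CPM in Tet1KO libraries (log2 fold change -0.39, SE 0.113, adjusted p = 0.0273). Both again had every DKO library below every Tet1KO library. Ndufa4, named for complex I but since found with cytochrome c oxidase, fell as well (log2 fold change -0.32, adjusted p = 0.021), as did Ndufa6 and Ndufv3, whose values are given below. Ndufa4l2, a low-level paralogue known as a target of hypoxia signalling, had the largest change of the members called, with 0.258, 0.535 and 0.351 CPM in DKO libraries, against 2.2, 5.41 and 0.38 CPM in Tet1KO libraries. Here the groups overlapped, since Tet1KO C was as low as the DKO libraries. Its log2 fold change of -2.84 (SE 0.752, adjusted p = 0.0166) was -1.74 without Tet1KO B (adjusted p = 0.142).

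Core subunits of complex I other than Ndufv2 were examined too. Ndufs1, Ndufs7, Ndufs8 and Ndufv1, which carry the flavin or iron-sulphur centres, had log2 fold changes of -0.16, -0.16, -0.12 and -0.14 in DKO against Tet1KO cells, with adjusted p from 0.0965 to 0.327, and none of these 4 passed the test. None of the 7 assembly factors named Ndufaf was called, beside 7.12% of all tested genes called lower, although their log2 fold changes were all below 0. Ndufaf5 had one of the smallest differences of all, at -0.03 (adjusted p = 0.876).

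Complex II, succinate dehydrogenase, also belongs to the citric acid cycle, and 2 of its 4 subunits fell, beside 7.12% of all tested genes. Sdhc, a membrane anchor, was at 111, 113 and 105 CPM in DKO libraries, against 127, 128 and 121 CPM in Tet1KO libraries (log2 fold change -0.19, SE 0.0534, adjusted p = 0.0202). Sdhb, the iron-sulphur subunit, was at 86.7, 92 and 84.3 CPM in DKO libraries, against 111, 103 and 94.9 CPM in Tet1KO libraries (log2 fold change -0.23, SE 0.0686, adjusted p = 0.0317). In both genes the groups did not overlap. Sdhd, the other membrane anchor, had a log2 fold change of -0.21 (adjusted p = 0.0531). Sdha, the flavoprotein that holds the succinate site, was level, at 345, 345 and 338 CPM in DKO libraries, against 346, 344 and 361 CPM in Tet1KO libraries (log2 fold change -0.03, SE 0.0488, adjusted p = 0.719).

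In complex III, 1 of 8 members was called, a single gene (12.5%, beside 7.12% of all tested genes called lower). Uqcrfs1, the Rieske iron-sulphur protein, was at 112, 117 and 100 CPM in DKO libraries, against 130, 128 and 125 CPM in Tet1KO libraries (log2 fold change -0.22, SE 0.0644, adjusted p = 0.0304). Uqcrc1, a core subunit outside the electron path, had a log2 fold change of -0.05 (adjusted p = 0.66). In complex IV, 2 of 14 members were called (14.3%, beside the same 7.12%). Cox4i1, a large nuclear subunit with a regulatory role, was at 397, 426 and 345 CPM in DKO libraries, against 504, 460 and 483 CPM in Tet1KO libraries (log2 fold change -0.31, SE 0.0761, adjusted p = 0.0107). Cox6c, a small subunit, was the other. The tissue-restricted isoforms Cox4i2 (log2 fold change 0.69, adjusted p = 0.114) and Cox7a1 (-0.76, adjusted p = 0.0539) had larger differences that did not pass the test. In complex V, 4 of 17 members were called (23.5%, beside the same 7.12%). Atp5o, the OSCP subunit that joins the catalytic head to the peripheral stalk, was at 211, 218 and 204 CPM in DKO libraries, against 261, 232 and 246 CPM in Tet1KO libraries (log2 fold change -0.22, SE 0.0639, adjusted p = 0.0249). Its reads may be shared with Gm5436, a locus with 97.05% identity over 643 bases. Atp5g3, which encodes the ring subunit c, was at 307, 326 and 258 CPM in DKO libraries, against 366, 345 and 375 CPM in Tet1KO libraries (log2 fold change -0.29, SE 0.0827, adjusted p = 0.0272). For Uqcrfs1, Cox4i1, Atp5o and Atp5g3 all DKO libraries lay below all Tet1KO libraries. The catalytic subunits of the head did not pass: Atp5a1 had a log2 fold change of -0.15 (adjusted p = 0.0582) and Atp5b, the most abundant nuclear member, one of -0.05 (adjusted p = 0.506).

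**Figure D1:**
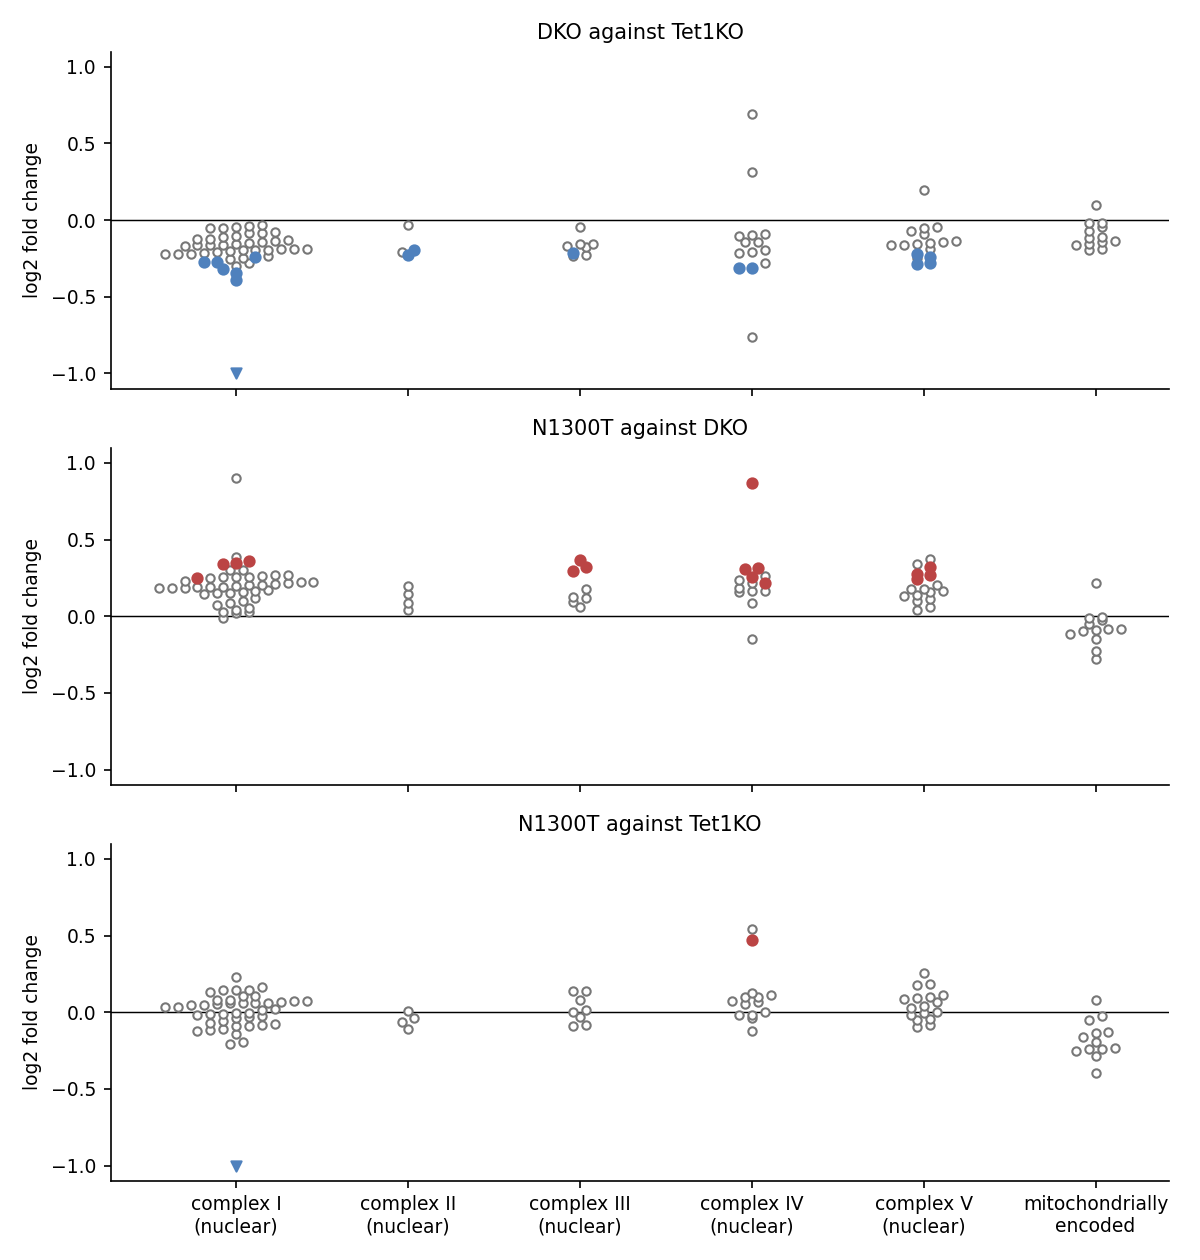
Log2 fold changes of the 88 nuclear and 13 mitochondrial members that were tested, ordered by complex, in DKO against Tet1KO, N1300T against DKO and N1300T against Tet1KO cells; filled blue and red points are members called lower and higher at an adjusted p under 0.05, and a triangle marks Ndufa4l2 where it lies beyond the axis. The nuclear members lie mostly below 0 in the first panel (85 of 88), mostly above 0 in the second (86 of 88) and on both sides in the third (51 above and 37 below).

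The mean of both N1300T groups was then compared with DKO cells, and here nuclear members were higher. Of the 88 nuclear members, 16 rose and 0 fell, which was 18.2% of the members, beside 1.7% of all tested genes called higher and 2.02% called lower (3.73% in either direction). The log2 fold change was above 0 for 86 members, with a median of 0.19. At an unadjusted p under 0.05, 63 members were higher and 0 lower, beside 10% of all genes higher and 9.7% lower. For 20 members all 6 N1300T libraries lay above all DKO libraries and for 0 below, beside 4.94% and 6.01% of all genes. This comparison shares the 3 DKO libraries with the one before, so that the 2 are not independent. With the length trend removed the count was 2 and the median 0.10, while library size alone gave 8 and DESeq2 32. Over all genes library size alone called 667 and DESeq2 1100, against 597 in the main fit. Leaving out single libraries, the count was 0 without DKO C, 1 without DKO A, 4 without N1300T 49 A or N1300T 81 B, 9 without N1300T 49 B and 29 without N1300T 81 A. Calls over all genes fell as well, from 597 to 347 without N1300T 49 A and 372 without N1300T 81 B. They were 387 without N1300T 49 B and 528 without N1300T 81 A. The median remained between 0.14 without DKO C and 0.25 without DKO B.

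By complex, 4 of 45 members of complex I, 0 of 4 of complex II, 3 of 8 of complex III, 5 of 14 of complex IV and 4 of 17 of complex V were higher in N1300T cells. This stood beside 1.7% of all tested genes called higher. Ndufa7, an accessory subunit of the peripheral arm of complex I, was at 142, 132 and 118 CPM in N1300T 49 and 112, 142 and 124 CPM in N1300T 81, against 103, 111 and 90.7 CPM in DKO libraries (log2 fold change 0.34, SE 0.0774, adjusted p = 0.0212). Uqcrq, which helps to bind ubiquinone in complex III, was at 161, 156 and 157 CPM in N1300T 49 and 134, 165 and 151 CPM in N1300T 81, against 125, 136 and 110 CPM in DKO libraries (log2 fold change 0.32, SE 0.07, adjusted p = 0.0181). In Ndufa7 all N1300T libraries lay above all DKO libraries, while in Uqcrq N1300T 81 A lay below DKO B. Cox5a, a matrix-side subunit of complex IV, was at 234, 221 and 211 CPM in N1300T 49 and 199, 232 and 210 CPM in N1300T 81, against 181, 199 and 167 CPM in DKO libraries (log2 fold change 0.25, SE 0.0615, adjusted p = 0.0283). Atp5g1, another gene for subunit c, was at 302, 253 and 264 CPM in N1300T 49 and 240, 278 and 261 CPM in N1300T 81, against 219, 223 and 197 CPM in DKO libraries (log2 fold change 0.32, SE 0.0715, adjusted p = 0.0184). In both genes every N1300T library was above every DKO library. Reads of Atp5g1 may be shared with Gm10039, which has 99.76% identity to it over 411 bases. Those of Cox5a may be shared with Gm11633 (93.02% over 444 bases).

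The rest of the members called in N1300T against DKO cells were Ndufa6, Ndufv3, Ndufb5, Uqcr10, Uqcr11, Cox6b1, Cox6c, Cox7a1, Cox7a2, Atp5h, Atp5j and Atp5j2, with log2 fold changes from 0.22 for Cox6b1 to 0.87 for Cox7a1. Cox7a1, the heart and muscle isoform of subunit VIIa, had the largest change of them. It was at 6.9, 9.59 and 5.63 CPM in N1300T 49 and 6, 10.1 and 4.68 CPM in N1300T 81, against 3.89, 3.97 and 3.89 CPM in DKO libraries (log2 fold change 0.87, SE 0.225, adjusted p = 0.0403). The DKO libraries lay below all others in Cox7a1, and the 3 Tet1KO libraries, at 5.98, 8.88 and 5.01 CPM, lay among the N1300T libraries. Of 10 heart and muscle markers 5 passed the filter. The sum of all 10 was 17.3 to 20.2 CPM in N1300T 49 and 19.8 to 26.6 CPM in N1300T 81, against 12.2 to 15.1 CPM in DKO and 13.2 to 16.3 CPM in Tet1KO libraries. Tnnt2 and Myod1 were at 0 in Tet1KO, and the part of such cells in the Cox7a1 values was not tested. Reads of Atp5h may be shared with Gm10250, which has 98.97% identity to it over 485 bases. The same holds for Uqcr11 with Gm16418 (98.83% over 171 bases) and Cox6c with Cox6c2 (96.97% over 231 bases). Copies were found for other members too. The smallest differences were those of the assembly factors Ndufaf4 (log2 fold change -0.01) and Ndufaf1 (0.02) and of Ndufa10 (0.02).

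Of the nuclear members, 5 were called in both comparisons with DKO cells: Ndufa6, Ndufv3, Cox6c, Atp5j and Atp5j2. Of all tested genes 104 (0.649%) were likewise lower in DKO than in Tet1KO and higher in N1300T than in DKO cells, in comparisons that share the DKO libraries. Ndufa6 (chr15:82350139-82354291), a complex I accessory subunit of the LYR family, was at 56.1, 49.6 and 50.8 CPM in N1300T 49 and 50.7, 55.4 and 50.5 CPM in N1300T 81. It was at 41.9, 43 and 38.3 CPM in DKO libraries, against 50, 50.1 and 48.7 CPM in Tet1KO libraries. Every DKO library was below each of the 9 others. Its log2 fold change was -0.27 in DKO against Tet1KO (SE 0.0682, adjusted p = 0.0119) and 0.35 in N1300T against DKO cells (SE 0.0595, adjusted p = 0.00401). Ndufv3 (chr17:31520115-31531326), a small accessory subunit of the NADH-oxidising module, was at 53.8, 62.3 and 53 CPM in N1300T 49 and 58.7, 69 and 52.9 CPM in N1300T 81. It was at 47.5, 45.9 and 43.1 CPM in DKO libraries, against 60.2, 64.1 and 49 CPM in Tet1KO libraries. Here too the DKO libraries were the lowest of all. The log2 fold changes of Ndufv3 were -0.35 (SE 0.103, adjusted p = 0.0313) in DKO against Tet1KO and 0.36 (SE 0.0899, adjusted p = 0.0363) in N1300T against DKO cells.

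Atp5j (chr16:84827871-84835857), the F6 subunit of the stalk of complex V, was at 132, 109 and 113 CPM in N1300T 49 and 100, 110 and 117 CPM in N1300T 81. It was at 98.2, 96.4 and 87.7 CPM in DKO libraries, against 111, 108 and 114 CPM in Tet1KO libraries. The DKO libraries were again lowest, with N1300T 81 A next to them. Its log2 fold changes were -0.24 (SE 0.0751, adjusted p = 0.0377) in DKO against Tet1KO and 0.27 (SE 0.0656, adjusted p = 0.0316) in N1300T against DKO cells. Atp5j2 (chr5:145183704-145191541), subunit f of the membrane part of complex V, was at 192, 172 and 164 CPM in N1300T 49 and 146, 181 and 162 CPM in N1300T 81. It was at 141, 151 and 128 CPM in DKO libraries, against 174, 162 and 174 CPM in Tet1KO libraries. Cox6c (chr15:35931976-35938246), the small complex IV subunit, was at 214, 205 and 189 CPM in N1300T 49 and 135, 181 and 156 CPM in N1300T 81. It was at 147, 156 and 128 CPM in DKO libraries, against 184, 168 and 184 CPM in Tet1KO libraries. In Atp5j2 and Cox6c the DKO libraries overlapped N1300T 81 through its library A, and lay below all libraries of the other groups. The log2 fold changes were -0.28 (adjusted p = 0.0263) and 0.28 (adjusted p = 0.0387) for Atp5j2, and -0.31 (adjusted p = 0.0275) and 0.31 (adjusted p = 0.0376) for Cox6c, in DKO against Tet1KO and in N1300T against DKO cells.

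**Figure D2:**
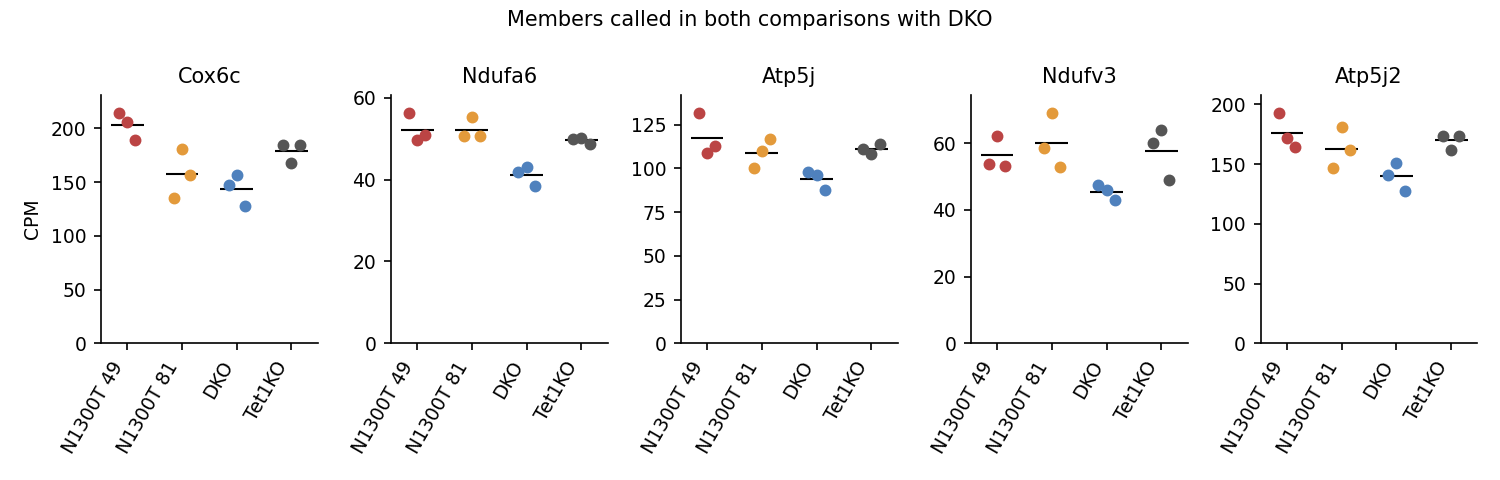
CPM in each library of Ndufa6, Ndufv3, Atp5j, Atp5j2 and Cox6c, the 5 members called both in DKO against Tet1KO and in N1300T against DKO cells; points are libraries and bars group means of 3 libraries. In Ndufa6 the DKO libraries (38.3 to 43 CPM) lie below the libraries of the other groups (48.7 to 56.1 CPM), while Cox6c overlaps N1300T 81.

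Transcript length, the ribosomal protein genes and single libraries moved with both comparisons. Among genes with transcripts under 1000 bases, the median log2 fold change in DKO against Tet1KO cells was -0.12 over all 1456 genes, -0.15 over the 165 of them with at least 100 CPM, and -0.20 over the 54 nuclear members of that class. Between 1000 and 2000 bases it was -0.05 over all genes and -0.16 over 27 members, and for genes of 4000 bases or longer it was 0.03. In N1300T against DKO cells the medians under 1000 bases were 0.12 over all genes, 0.19 over those with at least 100 CPM and 0.23 over the members. With the length trend removed, the 10 nuclear members called in DKO against Tet1KO cells were 9 lower and 1 higher (Cox6b2, log2 fold change 0.44, adjusted p = 0.0148), and the 2 called in N1300T against DKO cells were Ndufa6 (0.21, adjusted p = 0.0318) and Atp5g1 (0.20, adjusted p = 0.041). In DKO against Tet1KO cells, Atp5o was then at -0.10 (adjusted p = 0.284), Atp5j at -0.14 (adjusted p = 0.113), Ndufa6 at -0.15 (adjusted p = 0.0825), Sdhb at -0.16 (adjusted p = 0.0949), Atp5g3 at -0.18 (adjusted p = 0.0619), Ndufa4 at -0.19 (adjusted p = 0.0727), Cox6c at -0.20 (adjusted p = 0.0537) and Ndufv3 at -0.31 (adjusted p = 0.0516). In N1300T against DKO cells, Cox6b1 was at 0.08 (adjusted p = 0.311), Cox5a at 0.12 (adjusted p = 0.133), Uqcrq at 0.16 (adjusted p = 0.0872), Ndufb5 at 0.17 (adjusted p = 0.0727) and Ndufa7 at 0.19 (adjusted p = 0.0636). All of these genes thus kept their direction but did not pass. The summed level of 85 cytosolic ribosomal protein genes, which also have short transcripts, was 81599, 74001 and 72096 CPM in N1300T 49 and 65161, 73506 and 68858 CPM in N1300T 81. It was 64219, 67395 and 58538 CPM in DKO libraries, against 70545, 67903 and 70042 CPM in Tet1KO libraries, the same order of groups as for the nuclear members. In DKO against Tet1KO cells all 85 were below 0, with a median of -0.15, and 8 were called lower (9.41%, beside 7.12% of all tested genes). In N1300T against DKO cells 19 were called higher and 0 lower, with a median of 0.21. That was 22.4%, beside 18.2% of the nuclear members and 1.7% of all tested genes. Against DKO cells, N1300T 49 had 35 higher and N1300T 81 had 1 (beside 1.29% and 1.04% of all genes). This list was added after the values had been seen, and the part of transcript length or of these genes in the members' differences was not tested further.

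The N1300T cells set directly against Tet1KO cells, with TET1 absent in both, showed 2 nuclear members called: Cox6b2 rose and Ndufa4l2 fell. That was 2 of 88, beside 15.7% of all tested genes called (7.69% higher and 8.04% lower). The median log2 fold change of the nuclear members was 0.02, with 51 above and 37 below 0. Cox6b2 (chr7:4751792-4753094), the testis isoform of a complex IV subunit, was at 32.5, 34.2 and 40.8 CPM in N1300T 49 and 27.8, 39.7 and 33.9 CPM in N1300T 81, against 20.9, 26 and 28.2 CPM in Tet1KO libraries. N1300T 81 A lay within the Tet1KO range and the other 5 N1300T libraries above it. Its fold change was 1.39 (log2 fold change 0.47, SE 0.111, adjusted p = 0.0072), and without Tet1KO A the log2 fold change was 0.36 (adjusted p = 0.076). In DKO libraries Cox6b2 was at 31.5, 33.5 and 28.7 CPM, above all Tet1KO libraries, but the difference did not pass the test (log2 fold change 0.32, adjusted p = 0.102).

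Ndufa4l2 (chr10:127509274-127517154) was at 0.285, 0.921 and 0.19 CPM in N1300T 49 and 0.77, 2.01 and 0.308 CPM in N1300T 81, against 2.2, 5.41 and 0.38 CPM in Tet1KO libraries. The groups overlapped, and Tet1KO B was higher than all the rest. The log2 fold change of -1.94 (SE 0.582, adjusted p = 0.0311) was -0.85 without Tet1KO B (adjusted p = 0.413). Among members of at least 10 CPM, the largest differences after Cox6b2 were those of Ndufa3 (log2 fold change 0.23, adjusted p = 0.16) and Atp5e (0.18, adjusted p = 0.272). On the other side stood Ndufaf6 (-0.21, adjusted p = 0.174), Ndufa5 (-0.19, adjusted p = 0.191) and Ndufaf7 (-0.14, adjusted p = 0.131). None of these 5 passed the test.

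The 2 N1300T groups were also compared with each other. By edgeR 0 nuclear members were called in N1300T 49 against 81, beside 0.362% of all tested genes, and DESeq2 called 1, Cox6c (adjusted p = 0.0308). At an unadjusted p under 0.05, 18 members were higher in N1300T 49 and 0 lower, beside 3.72% of all genes higher and 3.78% lower. The log2 fold change was above 0 for 75 of 88 members, with a median of 0.09, which was 0.05 without N1300T 49 A or without N1300T 81 A and 0.04 with the length trend removed. Cox6c had a log2 fold change of 0.37 (SE 0.0911, adjusted p = 0.149), and all N1300T 49 libraries were above all N1300T 81 libraries. Ndufs5, a small accessory subunit of complex I, had one of 0.38 (adjusted p = 0.429) and Atp5k, subunit e of complex V, one of 0.33 (adjusted p = 0.535). Set against DKO cells one at a time, N1300T 49 had 20 nuclear members higher (beside 1.29% of all genes) and N1300T 81 had 2, Ndufa6 and Ndufv3 (beside 1.04%). All libraries of N1300T 49 lay above all DKO libraries for 61 of 88 members, beside 11.8% of all genes, and those of N1300T 81 for 22, beside 11.4%. Against Tet1KO cells, N1300T 49 had Cox6b2 higher and Ndufa4l2 lower (beside 5.16% and 5.7% of all genes), and N1300T 81 had Cox6b2 higher (beside 6.28% of all genes higher and 5.9% lower). With the letter as a block, N1300T 81 also had Ndufa4l2 (log2 fold change -1.25, adjusted p = 0.016), Ndufa5 (-0.34, adjusted p = 0.0345) and Sdhc (-0.16, adjusted p = 0.0489) lower. In the same fit N1300T 49 also had Ndufs4 (0.21, adjusted p = 0.0382), Ndufb9 (0.24, adjusted p = 0.0491) and Ndufa3 (0.35, adjusted p = 0.0381) higher.

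Tissue-restricted isoforms were compared by level, as CPM per kilobase of transcript. Cox4i1 averaged 590 CPM per kilobase over all libraries, against 1.91 for Cox4i2, the lung isoform. The general isoforms Cox6a1 and Cox7b stood at 342 and 168 CPM per kilobase, whereas the muscle isoform Cox6a2 had 2 counts in all libraries together and the testis isoform Cox7b2 had 51. Cox8a was at 388 CPM per kilobase, with 4 counts in all for Cox8b, the muscle isoform, and 10 for Cox8c, all of them in Tet1KO libraries. The pattern was thus that of cells with the general isoforms, with an exception in subunit VIb. Cox6b2 was at 57 CPM per kilobase beside 276 for Cox6b1. Cox7a1 was at 15.8 CPM per kilobase, beside 166 for Cox7a2 and 88.8 for Cox7a2l, which takes part in joining complexes III and IV. Ndufa4 was at 312 CPM per kilobase and Ndufa4l2 at 1.22.

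The genes Atp5g1, Atp5g2 and Atp5g3 encode the same mature subunit c with different import sequences, and they were expressed at like levels of 355, 372 and 470 CPM per kilobase. In DKO against Tet1KO cells Atp5g3 fell, with log2 fold changes of -0.14 for Atp5g1 (adjusted p = 0.261) and -0.07 for Atp5g2 (adjusted p = 0.555). In N1300T against DKO cells Atp5g1 rose, with log2 fold changes of 0.18 for Atp5g2 (adjusted p = 0.0987) and 0.20 for Atp5g3 (adjusted p = 0.123). Whether the 3 genes differed from one another in these changes was not tested.

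**Figure D3:**
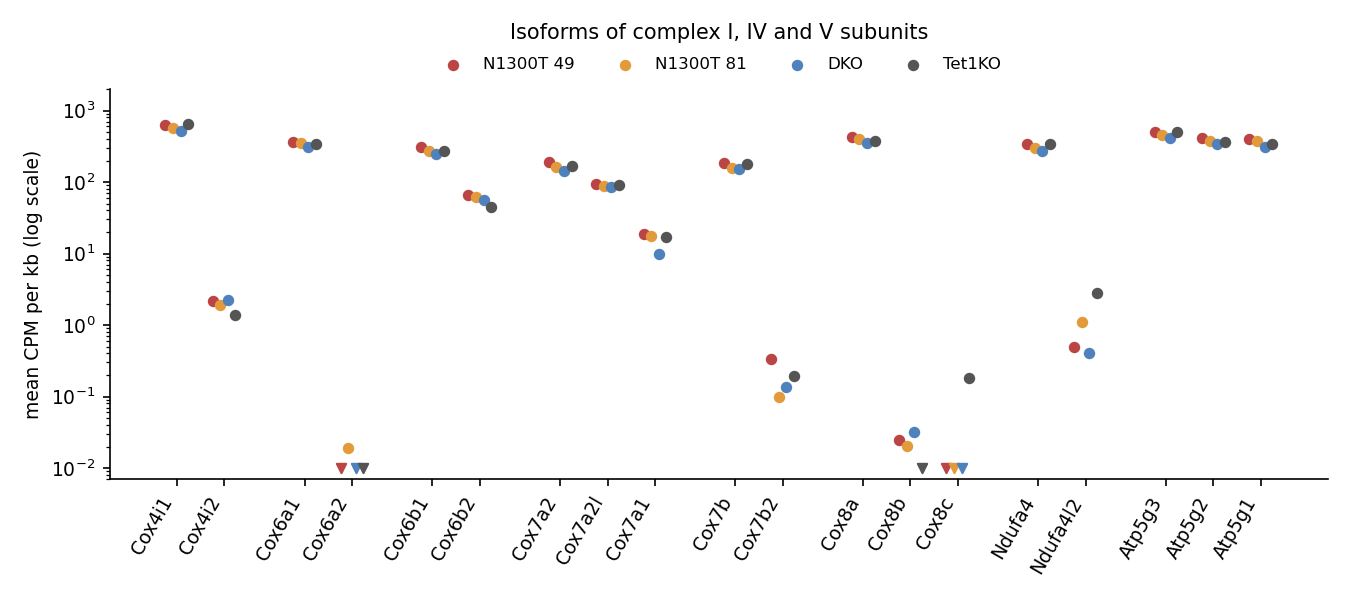
Mean CPM per kilobase of transcript, on a log axis, of the alternative isoforms in N1300T 49, N1300T 81, DKO and Tet1KO cells (3 libraries each); triangles at the lower edge are values under 0.01. As means over all libraries, the general isoforms lie between 88.8 (Cox7a2l) and 590 (Cox4i1) CPM per kilobase, Cox6b2 at 57, Cox7a1 at 15.8, and the other tissue-restricted forms at 1.91 (Cox4i2) or lower.

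The 13 mitochondrially encoded members code for subunits of complexes I, III, IV and V and are transcribed from both strands of mitochondrial DNA as long precursors that are cut into single RNAs. Their counts per length ranged from 7.82 to 7666 CPM per kilobase. COX1, the catalytic subunit of complex IV, was the highest and took 50.7% to 60.7% of all mitochondrial counts in a library. ND1 and CYTB followed at 2862 and 2766 CPM per kilobase, and ND4, ND2 and ND5 at 946, 810 and 783. ND6 was at 136. COX2, ATP6, COX3, ND4L, ATP8 and ND3 were at 106, 55, 40.1, 20.6, 13.1 and 7.82 CPM per kilobase, beside 1161 for the nuclear gene Atp5b. The 6 together summed to between 115 and 193 CPM in every library.

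Those 6 low genes are the ones that a nuclear copy of mitochondrial DNA on chromosome 1 of mm10 covers or encloses. COX2, ATP6, COX3 and ND4L have copies there with 100% identity over 681 of 684, 678 of 681, 783 of 784 and 294 of 297 bases. ND3 has one with 99.71% identity over 345 of 348 bases. ATP8 lies between COX2 and ATP6. ND4 has a copy over 63.6% of its length and COX1 over 31.3%, while the annotated pieces of this copy include none of ND1, ND2, ND5, ND6 and CYTB. Less similar copies lie elsewhere. On chromosome 2 they cover COX1 (97.61% identity over 1545 bases) and part of ND2 (96.67% over 510 bases). On chromosome 4 they cover part of ND5 (92.42% over 1055 bases), ND6 (93.64% over 519 bases) and CYTB (92.91% over 1142 bases). How reads that match 2 places were counted was not given in the sources used here, so levels among mitochondrial genes may not be read as levels of their RNA, and the part of the copies in these values was not tested. The sequences below show how little separates a gene and its copy. They are taken from mm10, 5′ to 3′ on the strand of the gene, for the bases at and around the single difference, which is in capitals: A1066T in COX1 and T3C in ND3, with positions counted from 1 at the first base of the gene and the mitochondrial base given first.
COX1, chrM:6390-6489, plus strand: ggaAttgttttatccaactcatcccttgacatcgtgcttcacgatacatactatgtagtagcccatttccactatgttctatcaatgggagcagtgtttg
Copy of COX1, chr1:24616089-24616188, minus strand: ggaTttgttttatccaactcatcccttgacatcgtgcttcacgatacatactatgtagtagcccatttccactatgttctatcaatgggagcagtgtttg
ND3, chrM:9459-9558, plus strand: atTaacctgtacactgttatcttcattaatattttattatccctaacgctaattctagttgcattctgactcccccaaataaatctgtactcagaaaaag
Copy of ND3, chr1:24613020-24613119, minus strand: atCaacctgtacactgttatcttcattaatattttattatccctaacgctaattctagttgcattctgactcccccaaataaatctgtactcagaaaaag

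**Figure D4:**
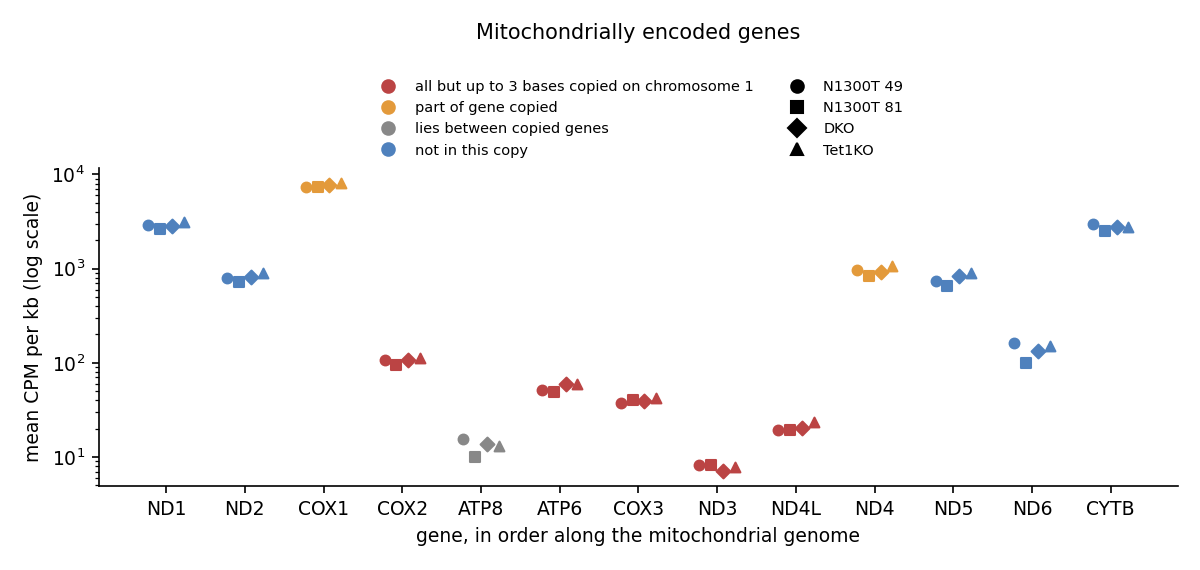
Mean CPM per kilobase, on a log axis, of the 13 mitochondrially encoded members in the order of the genes, for N1300T 49, N1300T 81, DKO and Tet1KO cells (3 libraries each); colours show whether a copy on chromosome 1 covers all but up to 3 bases of the gene, part of it or none, or lies on both sides of it. As means over all libraries, the 6 genes covered or enclosed lie between 7.82 (ND3) and 106 (COX2) CPM per kilobase and the other 7 between 136 (ND6) and 7666 (COX1).

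No mitochondrial member passed the test between groups (edgeR). In DKO against Tet1KO cells edgeR called 0 of 13, beside 15% of all tested genes in either direction, with 0 at an unadjusted p under 0.05 (beside 14.6% of all genes each way) and 0 by DESeq2. The median log2 fold change was -0.12, with 12 of 13 below 0, and it was 0.02 without Tet1KO A. In N1300T against DKO cells edgeR again called 0, beside 3.73% of all genes, with 0 at an unadjusted p under 0.05 and 0 by DESeq2. The median there was -0.09, also with 12 below 0, against 0.19 for the nuclear members. It came close to 0 on leaving out single libraries, at -0.01 without DKO C or N1300T 49 C and -0.02 without N1300T 81 B, and was -0.19 without N1300T 49 A. Whether the nuclear and mitochondrial sets differed was not tested. In N1300T 49 against 81 edgeR called 0, beside 0.362% of all genes, and DESeq2 0, while 2 had an unadjusted p under 0.05, ATP8 (log2 fold change 0.66, adjusted p = 0.535) and ND6 (0.71, adjusted p = 0.662). The median of 0.17 in that comparison was -0.13 without N1300T 49 A.

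In N1300T against Tet1KO cells edgeR called 0 of the 13, beside 15.7% of all genes, and DESeq2 0, and 12 were below 0, with a median of -0.19. ND5, a proton-pumping core subunit of complex I, was the 1 with an unadjusted p under 0.05. It was at 1819, 1103 and 1089 CPM in N1300T 49 and 1519, 914 and 1131 CPM in N1300T 81, against 2100, 1400 and 1471 CPM in Tet1KO libraries (log2 fold change -0.39, SE 0.163, adjusted p = 0.113). N1300T 49 A and 81 A lay within the Tet1KO range and the other 4 libraries below it, and within each of the letters A, B and C both N1300T libraries lay below the Tet1KO library. ND5 had a log2 fold change of -0.48 (adjusted p = 0.113) in N1300T 81 against Tet1KO cells and of -0.49 with the letter as a block (adjusted p = 0.0023). In N1300T 49 against Tet1KO cells it was -0.31 (adjusted p = 0.336), and -0.32 with the block (adjusted p = 0.037). The block put the same letter effect on all groups, and no label gives such a pairing. ND4 (-0.33, adjusted p = 0.021) and ND6 (-0.71, adjusted p = 0.0405) were also called lower in N1300T 81 with that block. Without N1300T 49 A, 5 of the 13 were called lower: ND1, ND2, ND4, ND5 and ATP6, with ND5 at -0.54 (adjusted p = 0.0137). That fit called 2575 of all genes in either direction, against 2520 with all libraries. N1300T 49 A had the highest mitochondrial sum of all libraries (26877 CPM), and without it the median of the 13 was -0.33. Without N1300T 81 A, ND5 was at -0.50 (adjusted p = 0.0382), and without Tet1KO A the median of the 13 was -0.06.

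COX1 was at 13630, 11100 and 9475 CPM in N1300T 49 and 12020, 11340 and 10460 CPM in N1300T 81. It was at 11830, 10880 and 13400 CPM in DKO libraries, against 14340, 12450 and 11200 CPM in Tet1KO libraries. The groups overlapped throughout. CYTB, the mitochondrial subunit of complex III, was at 4467, 3068 and 2778 CPM in N1300T 49 and 3272, 2500 and 2830 CPM in N1300T 81. It was at 3080, 2993 and 3399 CPM in DKO libraries, against 3543, 3030 and 3014 CPM in Tet1KO libraries. In both genes the range within N1300T 49 exceeded every difference between group means. ND6 is encoded on the other strand, and its positions 13552 to 14070 overlap the end of ND5 at 11742 to 13565. It was at 140, 66 and 44 CPM in N1300T 49 and 83, 35.2 and 35.2 CPM in N1300T 81, against 60.1, 89.8 and 58.8 CPM in DKO and 78.5, 81.2 and 72.4 CPM in Tet1KO libraries. Without knowing whether counting used the strand, which was not given in the sources used here, reads of ND6 and of transcripts from the opposite strand cannot be told apart.

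Of 8 lists of other genes of the pathway, chosen with earlier results known, the electron carriers had the highest share called in DKO against Tet1KO cells. Of the 8 electron carriers, 4 fell and 0 rose (edgeR), with a median of -0.18, beside 7.12% of all tested genes called lower. Cycs, the somatic cytochrome c, had a log2 fold change of -0.34 (adjusted p = 0.0119), Cyct, the testis form, one of -1.06 (adjusted p = 0.00215), Cyc1, cytochrome c1 of complex III, one of -0.18 (adjusted p = 0.033) and Etfb, of the electron transfer flavoprotein, one of -0.25 (adjusted p = 0.0391). Cycs and Cyct were lower in N1300T than in Tet1KO cells too, with log2 fold changes of -0.27 (adjusted p = 0.0157) and -0.58 (adjusted p = 0.0321). Of 77 mitochondrial ribosomal genes 10 fell and 0 rose in DKO against Tet1KO cells, 71 were below 0 and the median was -0.14. Mrps35 (-0.34, adjusted p = 0.00383), Mrpl35 (-0.31, adjusted p = 0.0059) and Mrps9 (-0.23, adjusted p = 0.0104) were among them. In N1300T against DKO cells 6 of the 77 rose and 0 fell, beside 1.7% of all genes higher, with a median of 0.10. In N1300T against Tet1KO cells 2 rose and 5 fell, below the shares of all genes (7.69% higher and 8.04% lower), with a median of -0.02.

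Of 38 tested assembly factors outside the Nduf series, 5 fell and 1 rose in DKO against Tet1KO cells (13.2% and 2.63%, beside 7.12% and 7.86% of all tested genes), with a median of -0.09. Uqcc2, which acts in making cytochrome b of complex III, had log2 fold changes of -0.43 in DKO against Tet1KO (adjusted p = 0.00581) and 0.38 in N1300T against DKO cells (adjusted p = 0.0194). Cox14 and Cox17, assembly factors of complex IV, had -0.32 (adjusted p = 0.022) and -0.26 (adjusted p = 0.048) in the first comparison and 0.32 (adjusted p = 0.032) and 0.32 (adjusted p = 0.0248) in the second. These 3 were the assembly factors called in N1300T against DKO cells, where 0 fell. Acad9, a complex I assembly factor, rose in both DKO (0.23, adjusted p = 0.00959) and N1300T (0.25, adjusted p = 0.00205) against Tet1KO cells.

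In each of the remaining lists no more than 2 genes were called in DKO against Tet1KO cells, beside 7.12% of all genes lower and 7.86% higher. Ssbp1, the mitochondrial single-strand DNA binding protein, was the 1 of 17 called in DKO against Tet1KO cells (-0.35, adjusted p = 0.00525) and was lower in N1300T cells too (-0.21, adjusted p = 0.0441). Tfam, which packages and transcribes mitochondrial DNA, had a log2 fold change of -0.14 in DKO against Tet1KO cells (adjusted p = 0.103). Of 18 genes of mitochondrial RNA processing 2 rose and 0 fell there, namely Grsf1, a component of mitochondrial RNA granules (0.34, adjusted p = 0.0012), and Pnpt1, a mitochondrial ribonuclease (0.28, adjusted p = 0.00899). Among 8 tested regulators of mitochondrial biogenesis, the nuclear receptor gene Esrra was higher in DKO (0.34, adjusted p = 0.0206) and in N1300T (0.38, adjusted p = 0.0042) than in Tet1KO cells. Myc was lower in both, with -0.29 (adjusted p = 0.0336) in DKO and -0.49 (adjusted p = 0.000225) in N1300T cells. Of 18 genes of the citric acid cycle 1 fell in DKO against Tet1KO cells, Suclg1 of succinyl-CoA synthetase (-0.26, adjusted p = 0.00332). The 11 tested genes of coenzyme Q synthesis had a median of -0.14 there, and Pdss1, which makes the side chain of the quinone, was called higher in N1300T against Tet1KO cells (adjusted p = 0.0243).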

How the data were processed

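RNA was measured in 12 libraries of mouse ES cells. The authors deposited a table of raw read counts per gene symbol, and the submitters' processing notes name mm10 and DESeq2. The aligner, the counting program, the annotation, the use of strand and the treatment of reads that match more than 1 place were not given in the sources used here. Counts of a gene and of its near-identical copies are therefore uncertain. The table held 5990 counts of 1 but 20282 counts of 2, so that the precision may be below that of the totals, and halving all counts was among the alternatives.

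The members and all lists were chosen with earlier results of these data known. Members were matched by symbol. Genes were filtered with filterByExpr by group, which kept 99.97% of counts, and scaled by TMM factors (0.979 to 1.02). They were then fitted with edgeR 4.0.16 (R 4.3.3, limma 3.58.1) in 1 quasi-likelihood model of 4 groups with 8 residual and 9.11 prior degrees of freedom. Tests were 2-sided, and a call needed p under 0.05 after Benjamini-Hochberg adjustment over 16014 genes; N1300T is the equally weighted mean of 49 and 81. On counts simulated for DKO against Tet1KO, 100 of 100 genes changed 2-fold and 49 of 100 changed 1.25-fold were called, with 10 false calls, in a set of 15744 genes. The changed genes were taken from those of at least 10 CPM, and each gene was drawn independently. The simulated libraries thus held no trend with transcript length, and the false calls do not cover such a trend. CPM per kilobase used the median principal transcript of GENCODE vM21, found for 106 members; 92% of tested genes had a length. Copies were found with BLAST 2.17.0, and promoter windows came from RefSeq (GRCm38.p6).

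The text names all 13 mitochondrial genes, up to 8 nuclear members called in each direction by adjusted p, the 3 largest and 3 smallest log2 fold changes among members of at least 10 CPM, core subunits, tissue-restricted isoforms and up to 3 called genes of each list; other genes in it were named after their values were seen. One gene that this rule names is not reported here. Alternatives were size factors, library size alone, no filter, DESeq2 1.42.0, a replicate block, the compared groups alone, mitochondrial genes left out of the library size, each library left out and, chosen after seeing the data, a length trend removed per library and N1300T 81 A and DKO C left out together. The labels do not say that libraries with the same letter were paired. Deviations from the group means of libraries with the same letter had correlations of 0.132, 0.284 and 0.312 for N1300T 81 with Tet1KO. For N1300T 49 with Tet1KO they were 0.0843, 0.197 and 0.156.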

Additional observations from a re-analysis of the deposited data

How the results depend on the processing

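Over 22 other settings, the values of 70 members, chosen by the rule for named genes, were recomputed in each comparison. Of 660 values of their 30 calls, all kept their sign, 485 stayed past the threshold and 175 did not. Of 5148 values of members not called, 141 passed the threshold and 191 changed sign while staying uncalled. In DKO against Tet1KO cells, 16 nuclear members were called in the report, 22 with DESeq2, 35 with no filter, 30 with the compared groups alone, 10 with the length trend removed and 1 without N1300T 81 A and DKO C together. Leaving out 1 library gave 0 to 25. Over all genes, 2399 were called in the report, 2686 with DESeq2, 2913 with no filter and 2893 with the compared groups alone. In N1300T against DKO cells, where 16 were called, it was 32 with DESeq2, 45 with no filter, 8 with library size alone, 2 with the length trend removed and 0 without N1300T 81 A and DKO C. Leaving out 1 library gave 0 to 29. Calls over all genes numbered 597 in the report, 1100 with DESeq2, 1481 with no filter and 667 with library size alone. In N1300T against Tet1KO cells, where 2 were called, it was 1 with DESeq2, 6 with no filter and 1 with the compared groups alone. Leaving out 1 library gave 0 (without Tet1KO A) to 4 (without Tet1KO C). Calls over all genes were 2520, and 2782, 3009 and 1930 in these 3 settings. In N1300T 49 against 81, where 0 were called, it was 1 with DESeq2 and 5 with no filter, and 0 to 1 on leaving out 1 library. Here calls over all genes were 58, with 108 by DESeq2 and 244 with no filter. Of the mitochondrial members, of which 0 were called in any comparison, no filter gave 1 in DKO against Tet1KO, 2 in N1300T against DKO, 7 in N1300T against Tet1KO and 3 in N1300T 49 against 81. Leaving out 1 library gave 0, 0, 0 to 5 and 0 to 1 in these comparisons in the same order; the 1 was ATP8 without N1300T 49 C (log2 fold change 0.93, adjusted p = 0.0476). The causes were not tested, other than that fewer libraries entered some fits.

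Deviations from the group means of libraries with the same letter had correlations of 0.0662 to 0.312 among N1300T 49, N1300T 81 and Tet1KO and of -0.0419 to 0.0366 with DKO, against -0.254 to 0.0445 for other letters. All were over 0.1 for N1300T 81 with Tet1KO alone; for 49 the lowest were 0.0662 with 81 and 0.0843 with Tet1KO, although each library correlated best with its own letter there, a hint from the data and not the design. With the letter as a replicate block, nuclear members called numbered 28 in DKO against Tet1KO, 36 in N1300T against DKO and 1 in N1300T 49 against 81, and mitochondrial members 1 in N1300T against DKO and 1 in N1300T against Tet1KO, in both ND5 (log2 fold changes -0.33, adjusted p = 0.0215, and -0.40, adjusted p = 0.00214). The other counts of members with the block stayed within 1.5 times. Over all genes the block called 3281 in DKO against Tet1KO and 1497 in N1300T against DKO cells. It called 105 in N1300T 49 against 81 and 3323 in N1300T against Tet1KO cells. Halving all counts gave 18 and 20 nuclear calls where 16 and 16 were reported in DKO against Tet1KO and in N1300T against DKO cells. Over all genes it gave 2429 and 699 calls, where 2399 and 597 were reported. Depth limited most the 6 members that did not pass the filter and Ndufa4l2, with 54 counts in N1300T 49 and 57 in DKO cells over 3 libraries each.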
